A study of Mus musculus with 17 samples.

Results

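High-CpG promoters covered in sperm only are start sites of CpG-rich promoters whose nucleosome-sized fragments were sparse relative to the flanks in mouse embryonic stem (ES) cells and less so in sperm. They numbered 359 of 10262 high-CpG promoters with enough signal in the flanks to be read. The files class 10576 start sites as high-CpG, among 16493 classed start sites and 28012 in all. A promoter was chosen when its start-site ratio was 0.25 or less in ES cells and 0.50 or more in sperm of the standard digestion. The start-site ratio is the mean signal within 200 bp of the start site over the mean signal 1000 to 2000 bp away on both sides. Enough signal meant a flank sum of at least 220 in both libraries, which equals 10 fragments. Both libraries therefore chose the promoters, and their ratios are given as a description.

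The study digested chromatin with micrococcal nuclease (MNase), for 5 min in every library used here, and sequenced the fragments from both ends. The ES cells were E14, a line of 129 X Ola background grown without feeders in medium with serum and LIF, and the sperm came from 10-week-old C57/B6J mice, were taken from the caudal epididymis and vas deferens, selected by swim-up and fixed with 1% formaldehyde for 15 min. In both, the library analysed here was the supernatant left after the digest was spun at 5000 g. A further 12 sperm libraries came from MNase titrations: 4 unspun digests at 0.5, 2, 10 and 50 units, and supernatant and pellet at 1, 5, 20 and 100 units. The number of sperm per titration digest is not stated, so these units cannot be set beside the standard dose. All 12 carry the same mouse strain, age and fixation in the labels as the standard sperm. Every group held 1 library, and the sources used here do not give how many animals a library pooled. The labels give fixation for sperm and none for ES cells, and they give less enzyme per cell for sperm. Cell type, strain, fixation and enzyme per cell thus differed between the ES cell and the sperm library and cannot be told apart.

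MNase cuts DNA that is free of protein, so the fragments that remain come from DNA wrapped in nucleosomes or held by other proteins. In cycling cells most CpG-rich promoters keep a nucleosome-depleted stretch around the start site, where transcription factors and RNA polymerase bind. In sperm, protamines replace most histones during the last steps of sperm formation, a minority of the genome keeps nucleosomes, and the positions of those nucleosomes have been studied as possible carriers of information to the embryo.

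The 6 promoters below show what such DNA looks like. They are the first of the promoters with the widest gap between the ES cell and the sperm interval that have exactly 1 entry in the RefSeq promoter table; Cd82 and Tmx2 have several, which cannot be told apart by symbol. Each line gives the 250 bases before the RefSeq start site, 5′ to 3′ on the gene's strand, with positions in GRCm38.p6 and with every CpG in capitals.
Clp1, chr2:84727288-84727537, minus strand: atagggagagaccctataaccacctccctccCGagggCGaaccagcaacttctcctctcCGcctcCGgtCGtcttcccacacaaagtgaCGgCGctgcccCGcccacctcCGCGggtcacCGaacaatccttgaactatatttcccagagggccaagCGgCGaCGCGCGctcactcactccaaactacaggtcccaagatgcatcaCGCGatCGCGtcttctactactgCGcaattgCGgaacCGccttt
Paxx, chr2:25461095-25461344, minus strand: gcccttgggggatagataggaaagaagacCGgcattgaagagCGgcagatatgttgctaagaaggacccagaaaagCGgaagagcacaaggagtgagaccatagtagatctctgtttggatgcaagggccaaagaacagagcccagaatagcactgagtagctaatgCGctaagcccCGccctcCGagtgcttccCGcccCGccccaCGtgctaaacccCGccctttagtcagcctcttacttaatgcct
Mboat7, chr7:3692987-3693236, minus strand: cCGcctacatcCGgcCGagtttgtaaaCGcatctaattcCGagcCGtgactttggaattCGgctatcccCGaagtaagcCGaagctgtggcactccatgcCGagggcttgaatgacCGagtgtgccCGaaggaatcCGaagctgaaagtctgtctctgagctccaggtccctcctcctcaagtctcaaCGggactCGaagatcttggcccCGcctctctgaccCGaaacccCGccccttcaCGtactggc
H2bc11, chr13:22042948-22043197, plus strand: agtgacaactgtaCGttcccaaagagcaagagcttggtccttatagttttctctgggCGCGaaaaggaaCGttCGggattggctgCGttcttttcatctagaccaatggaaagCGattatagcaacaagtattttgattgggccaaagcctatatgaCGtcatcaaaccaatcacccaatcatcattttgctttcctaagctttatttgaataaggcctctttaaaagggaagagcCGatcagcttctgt
Rpusd1, chr17:25727467-25727716, plus strand: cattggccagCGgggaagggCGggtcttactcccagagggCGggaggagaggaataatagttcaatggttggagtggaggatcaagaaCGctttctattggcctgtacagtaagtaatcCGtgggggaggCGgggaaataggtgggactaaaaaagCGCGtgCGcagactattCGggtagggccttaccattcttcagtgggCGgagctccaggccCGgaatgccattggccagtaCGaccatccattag
Pdp2, chr8:104591222-104591471, plus strand: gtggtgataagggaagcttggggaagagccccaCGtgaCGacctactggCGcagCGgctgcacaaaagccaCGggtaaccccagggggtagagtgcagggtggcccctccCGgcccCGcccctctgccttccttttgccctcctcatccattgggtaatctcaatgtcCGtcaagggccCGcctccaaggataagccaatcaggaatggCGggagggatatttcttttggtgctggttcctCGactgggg
The 6 stretches held from 9 CpGs (H2bc11) to 23 (Clp1), and their GC content ran from 42.4% (H2bc11) to 60.8% (Pdp2). The GC box GGGCGG was found on either strand in all of them but H2bc11. The CCAAT box, searched as CCAAT on both strands, was found in H2bc11, Rpusd1 and Pdp2. H2bc11 also held the cAMP response element TGACGTCA, Rpusd1 the motif of the factor NRF1, and Paxx and Pdp2 the E-box CACGTG.

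Depth differed widely between libraries. Within 1000 bp of a high-CpG start site there were on average 30.6 fragment equivalents in ES cells and 17.5 in standard sperm, against 0.132 to 0.944 in the titration libraries. A fragment equivalent is a pileup sum divided by 22.0, what an isolated fragment adds, or a read count divided by the mean of isolated clusters of that library. The 22.0 is the median in each of the 4 unspun libraries. It was also used for ES cells and standard sperm, where isolated fragments were not measured. In the first pair of libraries a ratio can be given for a single promoter, with a wide interval, and in the titration only for pooled promoters. Intervals of ratios and signal shares below are exact 95% intervals for counting error on fragment equivalents, and they do not cover the spread between animals or digests.

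In ES cells the median start-site ratio of the 359 promoters was 0.129, with a highest value of 0.25, which the rule limits. The median promoter held 1.00 fragment within 200 bp of the start site in ES cells, 46 held none and 175 held less than 1. In standard sperm the median ratio was 0.706, and values ran from 0.501 to 2.13. The median promoter held 3.18 fragments there, with 9.27 at most, and 314 of the 359 held under 5. The rule fixes ratios to the flank and not fragment numbers, and 13 promoters held more fragments within 200 bp in the deeper ES cell library than in sperm. Most promoters sat near the sperm limit: 212 had a sperm ratio between 0.50 and 0.75, and 62 had 1 or more. The flanks were nearly as deep as elsewhere in ES cells, with a median of 42.1 fragments against 43.9 over all 10262 promoters, and shallower in sperm, with 21.4 against 30.4. The flank is the denominator of the ratio.

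The background places these counts. Of all 10262 promoters, 52.5% had an ES cell ratio of 0.25 or less and 15.2% had a sperm ratio of 0.50 or more, and 3.5% met both. Since the rule used both libraries, nothing is read from that share. Both ratios were at most 0.25 at 4121 promoters (depleted in both), both were at least 0.50 at 832 (covered in both), and 983 had the opposite pattern, at least 0.50 in ES cells and at most 0.25 in sperm (covered in ES cells only). These 3 sets are used for comparison.

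**Figure D1:**
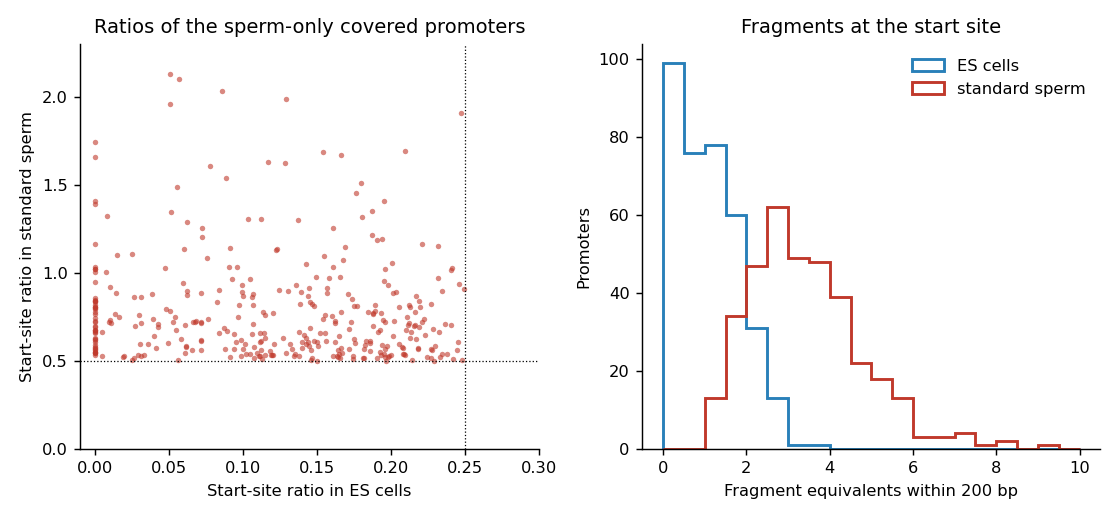
Left, start-site ratio in standard sperm against that in ES cells for each of the 359 promoters, with dotted lines at the limits of 0.25 and 0.50 that chose them. Right, number of promoters by fragment equivalents within 200 bp of the start site; 175 promoters held less than 1 fragment in ES cells and 314 held under 5 in sperm.

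Counting error was large for a single promoter. The ES cell and sperm intervals lay apart at 2 of the 359, Clp1 and Paxx. Clp1 encodes a kinase of the pre-mRNA 3′ end cleavage machinery that also acts in tRNA splicing, and its start site is at position 84567425 of chromosome 2 in mm9, the build of the deposited tables. Within 200 bp Clp1 held 0.545 fragments in ES cells and 9.27 in sperm, with flanks of 48.3 and 22.05 fragments. This gave a ratio of 0.056 with an interval of 0.0026 to 0.609 in ES cells, and of 2.10 with an interval of 0.829 to 4.62 in sperm. The highest sperm bin of Clp1 lay 110 bp upstream of the start site. In all 12 titration libraries Clp1 had no signal within 200 bp, and its flanks held between 0 and 2.00 fragments in each, so nothing can be read from those zeros for 1 promoter.

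Paxx, a factor of non-homologous end joining that repairs DNA breaks, starts at position 25316614 of chromosome 2 in mm9. It held 0.455 fragments in ES cells and 6.32 in sperm within 200 bp. The ES cell ratio of Paxx was 0.050 (0 to 0.427). Its sperm ratio was 2.13 (0.636 to 5.46), the highest of all 359. Paxx had signal at the start site in 3 of the 12 titration libraries, with 0.227 fragments at 10 units unspun, 0.871 in the supernatant at 20 units and 0.563 in the pellet at 100 units. None of these 3 values reaches 1 fragment.

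At the next 8 promoters by the gap, the intervals overlapped slightly. Sema3f, a secreted semaphorin that guides axons, had ratios of 0.051 in ES cells and 1.96 in sperm. Fdps, an enzyme of the isoprenoid and cholesterol pathway, had 0.154 and 1.69. Cd82, a tetraspanin of the cell surface, had 0.056 and 1.485. With Clp1 and Paxx these are 5 promoters whose sperm ratio was above 1, each with an interval that includes 1.
Tmx2, a thioredoxin-related membrane protein, had no ES cell fragment within 200 bp against a flank of 57.9, and 5.64 fragments in sperm, for a ratio of 0.805. H2bc11, a histone H2B gene of the large histone cluster, likewise had none in ES cells against a flank of 68, and 5.59 in sperm, for a ratio of 0.588 (0.219 to 1.46). Mboat7, an acyltransferase for lysophosphatidylinositol, had sperm ratio 2.03, Rpusd1 0.749 and Pdp2, a phosphatase that activates pyruvate dehydrogenase, 0.763. Pdp2 had the most titration libraries with start-site signal of these 10 genes, 4 of 12, with 1.00 fragment at 0.5 units, 0.682 at 2 units and 1.00 at 10 units in the unspun series and 0.513 in the supernatant at 5 units.

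The promoters with the deepest flanks in both libraries had moderate sperm ratios. Poglut2, a protein glucosyltransferase of the endoplasmic reticulum, had flanks of 56.2 fragments in ES cells and 51.2 in sperm, and ratios of 0.129 and 0.546. Cyclin K (Ccnk), which drives kinases that phosphorylate RNA polymerase II, had 0.088 and 0.5685. The exonuclease gene Xrn1 had 0.196 and 0.538, and Magohb, of the exon junction complex, 0.163 and 0.604. The highest sperm ratio among the 10 deepest was 0.805, at Nrp, and every interval of the 10 overlapped between ES cells and sperm.

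Promoters on both sides of the limits differed little. Fxyd6, Wrap53 and Has2 had ES cell ratios of 0.25, 0.248 and 0.248, just inside, while Slc2a8, Ctsh and Kif2c had 0.2502, 0.251 and 0.252, just outside, although their sperm ratios were 0.792, 1.61 and 1.31. At the sperm limit, Tbx5, Ddx47 and Snai3 had 0.501, 0.502 and 0.502, and Bcas2, Fstl4 and Myo5c stood outside with 0.499, 0.499 and 0.497. Within 200 bp Snai3 held 1.64 fragments in ES cells and 1.41 in sperm, and Tbx5 0.818 and 2.05.

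Averaged over the 359 promoters, the profile in ES cells fell to its lowest value, 0.070 of the flanks, 10 bp upstream of the start site, as at the 4121 promoters depleted in both, which fell to 0.046 at the same place. In sperm the profile of the 359 promoters, smoothed over 5 bins, instead reached 1.11 at 170 bp upstream, and the lowest point of the profile, 0.317, lay 270 bp downstream. The promoters depleted in both had 0.176 at most within 200 bp in sperm, at the upstream edge. Pooled over the 200 bp upstream, the sperm signal of the 359 was 0.997 of the flanks (0.927 to 1.07), and over the 200 bp downstream 0.497 (0.45 to 0.55). In ES cells the same stretches had 0.141 (0.122 to 0.161) and 0.109 (0.0933 to 0.127). These bins chose the promoters, so the values are a description. In the titration libraries, which the rule did not use, the upstream stretch was higher in 4 of 12 and the downstream stretch in 8, with intervals that overlapped in all 12. At 0.5 units unspun the values were 0.882 (0.593 to 1.28) upstream and 0.844 (0.57 to 1.25) downstream.

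Promoters covered in both, also chosen on these bins, had sperm values of 1.02 upstream and 0.685 downstream, and ES cell values of 1.03 and 0.954. The highest sperm bin lay upstream at 275 of the 359 promoters (76.6%), and at 75.02% and 69.1% of the promoters depleted in both and covered in both that had any signal. For the 359 its median position was 130 bp upstream, and at 104 of them it was the outermost upstream bin, where signal can belong to a fragment centred outside the 200 bp. It lay within 100 bp of the start site at 114 of the 359 (31.8%).

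**Figure D2:**
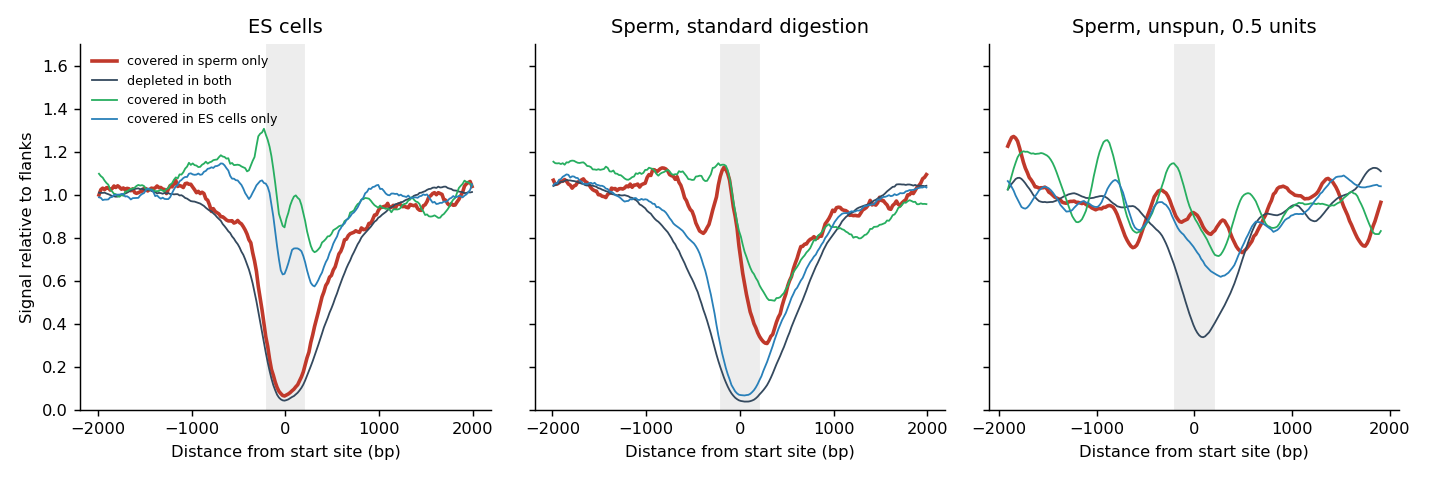
Signal relative to the flanks against distance from the start site (bp, negative upstream) in ES cells, standard sperm and unspun sperm at 0.5 units, averaged over each set; the third panel is smoothed over 9 bins of 20 bp. Grey marks the 200 bp to each side that the rule used. In standard sperm the 359 promoters reach 1.11 within the grey band, upstream, and dip downstream to 0.317.

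The 12 titration libraries were not used by the rule and give a second reading of sperm. In the unspun digest with the least enzyme, 0.5 units, the 359 promoters had a pooled start-site ratio of 0.863 (0.641 to 1.13), from 60.4 fragments at the start sites and 350 in the flanks. Promoters depleted in both had 0.431 (0.386 to 0.481), and the 2 intervals lay apart. All 10262 promoters had 0.636 (0.599 to 0.673), whose interval overlapped that of the 359. So did those of promoters covered in both, at 0.920 (0.766 to 1.1), and covered in ES cells only, at 0.745 (0.620 to 0.896). The last set was at most 0.25 in standard sperm by choice, yet it too stood above the promoters depleted in both at 0.5 units. The difference from the other sets was not tested beyond this overlap, and the value over all promoters lay just below the interval of the 359.

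Within the promoters at 0.25 or less in ES cells, the ratio at 0.5 units was lowest in the class with the lowest ratio in standard sperm. It was 0.341 (0.287 to 0.404) for the 2214 promoters under 0.05 in standard sperm, 0.471 (0.356 to 0.615) for 590 between 0.05 and 0.10, 0.557 (0.466 to 0.660) for 1315 between 0.10 and 0.25, and 0.596 (0.485 to 0.727) for 905 between 0.25 and 0.50. Past the limit it was 0.822 (0.558 to 1.18) for the 212 promoters from 0.50 to 0.75, 0.970 (0.533 to 1.76) for 85 from 0.75 to 1 and 0.876 (0.421 to 1.7) for 62 at 1 or more. The intervals of the classes on either side of the limit of 0.50 overlapped. At their lowest dose, 1 unit, the other series did not follow this order, but their intervals past the limit were too wide to show or contradict one. In the supernatant the classes from the lowest to the highest had 0.593, 0.667, 0.632, 0.931, 0.933 (0.539 to 1.58), 0.364 (0.0623 to 0.970) and 1.51 (0.531 to 3.49). In the pellet they had 0.885, 0.485, 0.956, 0.825, 0.398 (0.0399 to 1.36), 0.714 (0.0127 to 4.01) and 1.5 (0.265 to 5.83). At 50 units unspun the values were instead lower past the limit. They were 1.68 (1.5 to 1.87) under 0.05 and 1.43 (0.978 to 2.06), 1.31 (0.692 to 2.36) and 0.531 (0.133 to 1.42) in the last 3 classes, and of these the last one alone lay apart from the first.

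**Figure D3:**
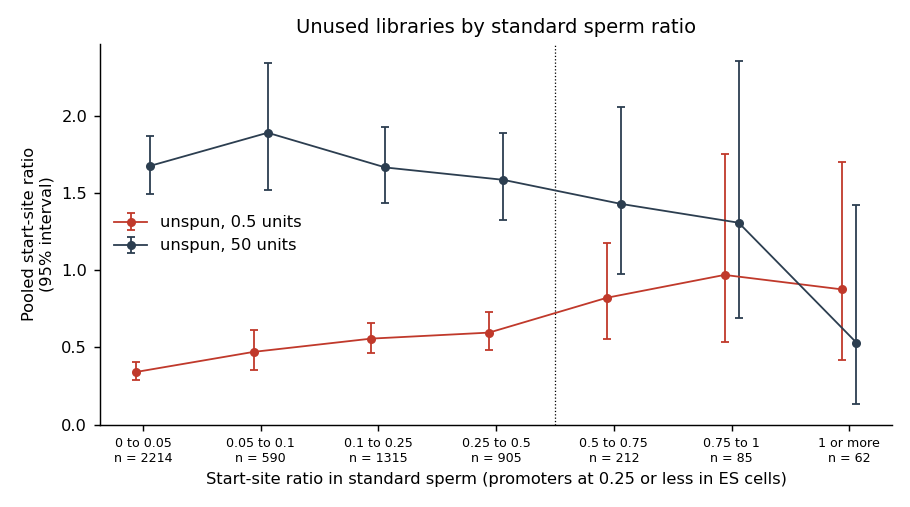
Pooled start-site ratio in unspun sperm at 0.5 and 50 units, with exact 95% intervals, for promoters at 0.25 or less in ES cells, split by their ratio in standard sperm; n is the number of promoters, and the 3 classes right of the dotted line are the 359. At 0.5 units the points run from 0.341 to 0.970, at 50 units from 1.89 down to 0.531.

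Over the doses, the ratio of the 359 promoters covered a narrower range than that of promoters depleted in both in the unspun and supernatant series, but not in the pellet. From the lowest to the highest dose it changed 1.445-fold, 1.11-fold and 2.78-fold in these 3 series, against 3.95-fold, 2.71-fold and 2.59-fold. Promoters covered in both changed 1.37-fold, 0.847-fold and 0.962-fold, so a small change with dose was not particular to the 359. The difference between these folds was not tested. In the unspun series the 359 promoters had 0.977 (0.742 to 1.26) at 2 units, 1.06 (0.794 to 1.42) at 10 units and 1.25 (0.921 to 1.67) at 50 units. All 4 of these intervals overlap. Promoters depleted in both had 0.839, 0.934 and 1.702 (1.57 to 1.85) at 2, 10 and 50 units. By 50 units the order of the 2 sets had turned, with overlapping intervals.

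In the supernatant series the 359 promoters had 0.854 (0.564 to 1.29), 1.07 (0.685 to 1.65), 0.929 (0.645 to 1.32) and 0.952 (0.724 to 1.25) at 1, 5, 20 and 100 units. They stayed near the level of their flanks at every dose. Promoters depleted in both went from 0.616 (0.543 to 0.697) to 1.67 (1.55 to 1.80), so at 100 units the 359 were lower with intervals apart. Read with the 20 bp bins of the header, the intervals overlapped, at 1.197 (1.01 to 1.41) against 1.445 (1.38 to 1.51). Overlapping windows did not match at that bin width, so this setting takes in a wider centre and flanks farther away. At that dose they were also apart from all 10262 promoters, at 1.43 (1.36 to 1.495), and from those covered in ES cells only, at 1.65 (1.42 to 1.92), but not from those covered in both, at 0.882 (0.727 to 1.07).

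In the pellet series the 359 promoters had 0.685 (0.278 to 1.62), 1.32 (0.821 to 2.14), 0.787 (0.466 to 1.24) and 1.90 (1.45 to 2.47). The value at 1 unit rests on 6.52 fragments at the start sites. At 100 units the 359 were close to promoters depleted in both, at 2.16 (2.00 to 2.34), and above those covered in both, at 1.07 (0.873 to 1.30), with intervals apart. With the 20 bp bins, and so over that wider stretch, the 359 were lower than promoters depleted in both with intervals apart at 20 units, 0.785 (0.574 to 1.05) against 1.23 (1.14 to 1.33), and at 100 units, 1.61 (1.345 to 1.91) against 2.16 (2.05 to 2.28). Over the 12 libraries the 359 were higher than promoters depleted in both in 7 and lower in 5, with intervals apart in 1 library each way, 0.5 units unspun and the supernatant at 100 units. Against all 10262 promoters they were higher in 6 and lower in 6, with intervals apart only in the supernatant at 100 units. The count tables of the supernatant and pellet hold wider bins and no stated fragment size, and isolated signal was narrower at 1 unit (a median of 100 bp against 200 bp), so levels are compared within a library only.

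**Figure D4:**
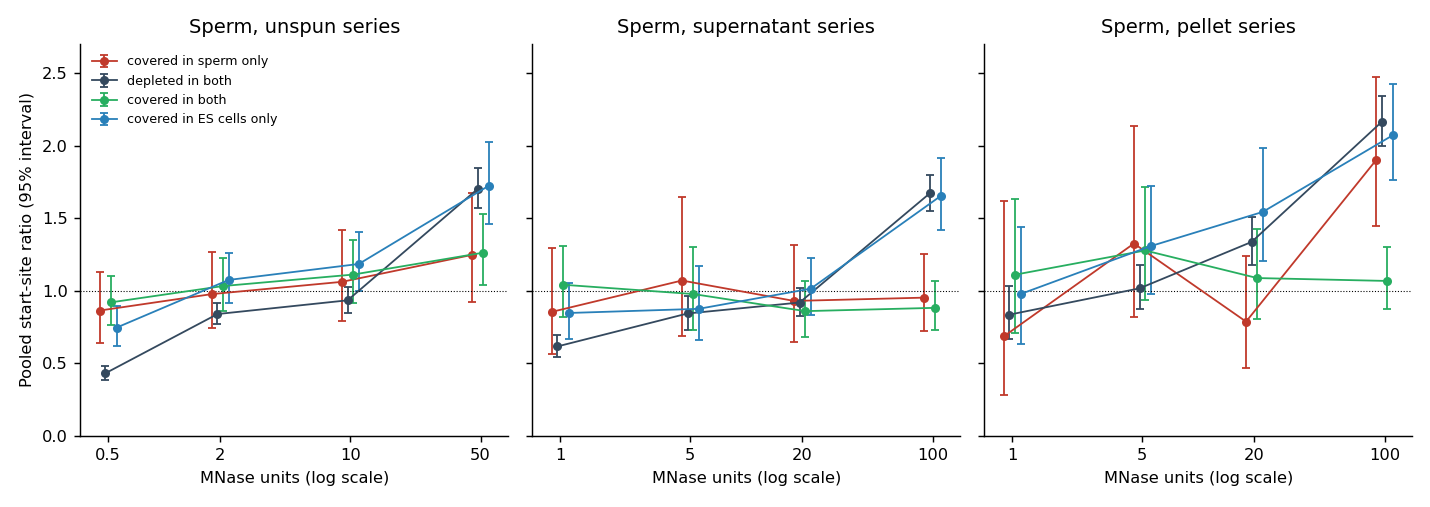
Pooled start-site ratio against MNase units (log scale) in the unspun, supernatant and pellet sperm libraries for the 359 promoters and the 3 comparison sets; bars are exact 95% intervals for counting error and each point is 1 library. The 359 promoters lie at 0.863 at 0.5 units unspun and 0.952 at 100 units in the supernatant, where promoters depleted in both lie at 0.431 and 1.67.

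Promoter by promoter, the sum of the unspun doses gave the 359 nearly the same values as all promoters. In the sum of the 4 unspun libraries, 268 of the 359 had at least 2 fragments in the flanks, and 136 of those (50.7%) had a ratio of 0.50 or more, against 50.8% of 7437 promoters over all. The median ratio was 0.537 against 0.526. Any signal within 200 bp was found at 232 of the 359 (64.6%), against 63.5% over all. At 0.5 units alone it was found at 86 (24.0%, 19.6 to 28.7), against 18.8% (18.1 to 19.6) over all and 14.5% (13.5 to 15.7) of promoters depleted in both. These intervals count promoters as if independent, although start sites under 500 bp apart share fragments. The interval of the 359 starts where that over all, which includes the 359, ends, so no separation between them is read. It lay above that of promoters depleted in both.

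The share that the 359 promoters took of all fragments at high-CpG promoters depended on the window. Within 1000 bp, which includes the bins that the rule used, they held 3.04% (2.98 to 3.10) of the fragments in ES cells and 3.66% (3.58 to 3.75) in standard sperm. Over the whole window the order turned, with 3.20% and 2.925%, so no change between the cells is read from these shares. In the unspun series the share was 3.75% (3.34 to 4.17) at 0.5 units and 3.12% (2.75 to 3.52) at 50 units, and in the supernatant 3.44% to 3.65%. In the pellet it ran from 2.91% to 3.48%. The titration intervals all overlap each other. Those of the unspun digest at 50 units and of the pellet at 20 units (2.39 to 3.51) end below the interval of standard sperm, and the other 10 overlap it.

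Several lists of genes that every cell uses had shares above that over all promoters. Of 71 tested promoters of cytoplasmic ribosomal proteins, 7 were among the 359 (9.86%), beside 3.5% over all: Rpl5, Rpl27, Rpl29, Rplp1, Rps2, Rps9 and Rps21. Rps2, a protein of the small ribosomal subunit, held 0.091 fragments in ES cells and 4.41 in sperm within 200 bp, for ratios of 0.0098 and 0.920. Rpl27 held none in ES cells against a flank of 38.6, and 2.95 in sperm. Rpl29 had the highest sperm ratio of the 7, 1.06, on 2.50 fragments. The mitochondrial ribosome had 5 of 71 (7.04%), including Mrps10 at 0.194 in ES cells and 0.773 in sperm.

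The respiratory chain and ATP synthase had 6 of 78 (7.69%): Atp5a1, Atp5b, Atp5d, Cox6c, Ndufaf3 and Ndufb10. Cox6c, a subunit of cytochrome c oxidase, was among the deepest with 8.18 sperm fragments against 1.91 in ES cells, and ratios of 0.169 and 1.15. Splicing factors had 6 of 82 (7.32%), with Prpf8, the core protein of the spliceosome, at 0.054 and 0.746, and the RNA-binding Rbm15 at 0.042 and 0.691. Translation factors and tRNA synthetases had 5 of 90 (5.56%), among them Hars and Hars2, the cytoplasmic and mitochondrial histidyl-tRNA synthetases. Their shares lie above 3.5%, but each rests on 5 to 7 promoters, and the shares were not tested. Other lists given below, such as DNA repair and the cell cycle, also lie above 3.5%, close to the translation list.

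The list of replication-dependent histone genes, which are expressed with DNA synthesis, had 5 of 34 (14.7%). These were H2ac8, H2bc3, H2bc9, H2bc11 and H4c2, all on chromosome 13. The list did not pick H2bu2, a histone gene by its symbol, on chromosome 11. H2bu2 was also covered in sperm only, with ratios of 0.219 in ES cells and 0.692 in sperm. The count and the shared chromosome thus hold for the listed genes only. H2bc3 held 0.182 fragments in ES cells and 7.18 in sperm, for ratios of 0.025 and 1.11. H4c2 had 0.091 and 0.5205, and H2ac8 0.174 and 0.852. The pattern that picks this list was widened to the present histone symbols after members had been seen, so its count is the least independent of all. Reads from near-identical histone copies may be shared, and the sources used here do not say how reads that map to several places were treated.

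Lists of developmental and germline genes were near the background or too short to read. Developmental regulators had 6 of 143 (4.20%), among them Foxo1, Sox18 and Tbx5. Irx5, a homeobox factor, held no ES cell fragment within 200 bp and 1.73 in sperm, and Hoxa9, which patterns the body axis, held 1.41 and 2.14. Meiotic genes had 1 of 23, Msh4, which acts in crossing over, at 0.167 and 0.542, and imprinted genes 1 of 18, Phlda2, a placental growth regulator, at 0.232 and 0.971. Spermatid genes had 0 of 11, genes of the piRNA pathway and germline 0 of 11, pluripotency genes 0 of 10 and clustered protocadherins 0 of 43. Lists of 10 or 11 promoters would hold fewer than 1 at the overall share, so their zeros say little.
Ubiquitin ligases, conjugating enzymes and deubiquitinases had 7 of 200 (3.5%), cilium, flagellum and coiled-coil domain genes 5 of 150 (3.33%), solute carriers 6 of 213 (2.82%) and zinc finger proteins 5 of 221 (2.26%). DNA repair had 3 of 56 (5.36%), cell cycle and replication licensing genes 5 of 95 (5.26%) and proteasome subunits 2 of 43 (4.65%). These lists were made by symbol, and the 5 cell cycle and licensing members were Bub1, Ccnk, Cdc14a, Mcm2 and Mcm3ap, of which Mcm3ap is better known for messenger RNA export. They were named after their values were seen. With counts this small these shares are not read apart from the background. Markers of leukocytes and of epididymal epithelium, cells that a sperm preparation can hold, had 0 of 1 and 0 of 5. Every cell carries these promoters, so such counts cannot show whether other cells were present.

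**Figure D5:**
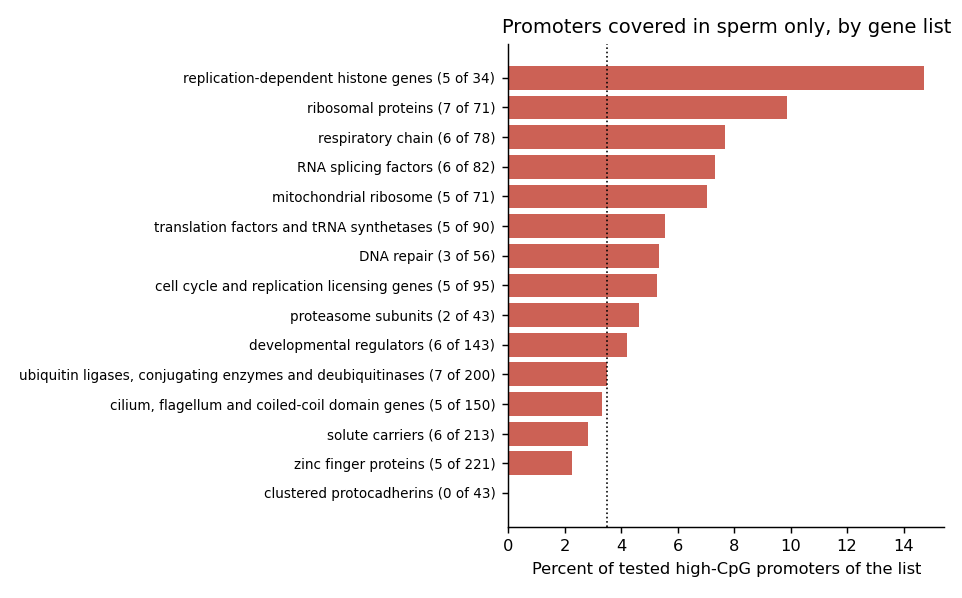
Percent of each list's tested high-CpG promoters that were covered in sperm only, for the lists named here with 30 or more tested promoters; counts are in brackets and the dotted line is the 3.5% over all. Histone, ribosomal and respiratory chain genes lie highest, at 14.7%, 9.86% and 7.69%.

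The 359 promoters were spread over every autosome and the X chromosome. The X held 16 of them, 5.78% of its 277 tested promoters, chromosome 7 held 39 of 736 (5.30%) and chromosome 12 held 7 of 366 (1.91%), beside 3.5% over all. The X and chromosome 12 had the highest and the lowest share of any chromosome, and these shares were not tested. Another start site lay within 500 bp at 68 of the 359 (18.9%), against 15.6% over all, and within 2000 bp at 91 (25.3%) against 20.2%. Start sites under 500 bp apart share fragments, and counting such groups once left 345.

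Promoter sequence could be looked up by symbol for 280 of the 359 (78.0%) and for 79.1% of the 10262. With so many missing, a check of base composition over the whole set is void, and the values that follow describe only the genes with an entry. Over the 300 bp window of RefSeq, 250 before to 50 after the start site, the 280 genes had a median GC content of 58% and 18 CpGs. The genes of all 10262 promoters had 62% and 22, those of promoters depleted in both 66.7% and 27, and those covered in both 55% and 14. The 280 thus lay between the comparison sets.
The letters CCAAT were found on either strand in 54.6% of the 280 genes, against 38.05% over the genes of all 10262 promoters, 35.3% of those depleted in both, 42.9% of those covered in both and 33.5% of those covered in ES cells only. Over all 27025 genes with a RefSeq promoter the share was 37.8%. In this and the other motif shares, a gene with several entries counts as the mean over its entries. Split by GC content, the share was 61.8% of 93 genes under 55% GC against 45.6% over all, 53% of 147 from 55 to 65% against 40.8%, and 43.75% of 40 at 65% or more against 31%. CCAAT is 1 of 11 motifs searched and the one with the largest difference in percentage points. The GC box GGGCGG was found in 65.8% of the 280 against 69.0% over all, and the TATA box TATAAA in 6.90% against 6.50%. The shares were 8.33% against 11.03% for the motif of NRF1, 16.7% against 18.6% for CCGGAAG of the ETS family, 3.21% against 1.69% for that of YY1, 9.23% against 10.6% for the E-box CACGTG and 3.04% against 3.37% for TGACGTCA. CpG itself was found in over 99% of both, and the motifs of ZBTB33 and CTCF in at most 1.115%. The letters of CCAAT are part of no other motif named here, and the GC box contains a CpG. A match of letters is no evidence that a factor binds there.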

How the data were processed

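Of 17 samples, 14 were used, and 3 (unspun ES cells, sperm input and sperm histone H3 immunoprecipitation) were not analysed here. The submitters' processing notes name Bowtie, SAMtools 0.1.16 and the build mm9; the sources used here do not give read filters or duplicate handling. For ES cells, standard sperm and the unspun series the authors deposited a signal, a whole-number fragment pileup in 20 bp bins over 2000 bp to each side, of 135 to 165 bp fragments per the table names. Isolated signal in the unspun series had a median width of 280 bp, wider than such fragments. Signal within 200 bp of a start site can thus belong in part to fragments centred outside it. For supernatant and pellet the authors deposited read counts per bin, with the promoter class per the file headers. Overlapping windows of neighbouring start sites matched in 100% of bins at 50 bp per bin and in 0% to 5.88% at the 20 bp of the header, so 50 bp was used. This rests on 4 pairs of windows, with 7 to 48 bins above 0 per library at 50 bp. Neither the signal nor the counts are scaled to depth. The labels' descriptions of the 5-unit and 20-unit pellets give other units than their titles, which were followed.

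Ratios were computed with Python 3.11.15, numpy 2.4.6, pandas 2.3.3 and scipy 1.17.1. Their intervals are exact (Clopper-Pearson) conditional binomial intervals at 95% on rounded fragment equivalents and cover counting error only, since reads carry no molecular identifiers; the code was tested on simulated data. No p-value is given: each group is 1 library. Symbols came from RefSeq GRCm38.p6 by transcript, for names only, and promoter sequences by symbol. Named genes are the 10 with the widest gap between intervals, the 10 with the deepest flanks, 3 on each side of each limit and up to 3 per gene list by flank depth; 23 lists were counted, and members of some lists are named in full. A few of the items these rules pick are not reported here. The promoters and lists were chosen with earlier results of these data known.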

Additional observations from a re-analysis of the deposited data

How the results depend on the processing

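The number of promoters depends on the limits and on depth: 198 with a flank minimum of 440, 207 with limits of 0.20 and 0.60, and 546 with limits of 0.30 and 0.45, against 359. The other 5 settings stayed within 1.5 times, but a centre of 140 bp shared 305 of its 451 promoters with the 359 and one of 300 bp 214 of 301. In the titration libraries 78 alternative ratios stayed within the interval of the main value and 2 did not: with a flank minimum of 440 the ratio was 1.27 at 2 units and 1.68 at 50 units unspun. At 0.5 units unspun it ran from 0.863 to 1.02 over the settings run for it, and the interval stayed apart from that of promoters depleted in both in each. Those settings did not include the other ratio limits or the lower flank minimum, and those with another centre kept the 359 promoters. The calls against promoters depleted in both at high supernatant and pellet doses differed with the 20 bp bins of the header, as given with those series. Overlapping windows matched at 50 bp instead, so the 20 bp setting measures a wider stretch and is not an equal reading of the same one. The share of high-CpG signal within 200 bp was 1.30% in ES cells, 8.46% in standard sperm and 4.66% at 0.5 units unspun, and over the whole window 3.20% in ES cells and 2.925% in standard sperm; in standard sperm the share over the whole window is below that of ES cells, the opposite of the order within 1000 bp. Promoters with intervals apart number only 2, so no pooled value was computed for them, and a match of promoters by transcript was not run because the promoter table gives no transcripts. Depth limits the titration: at under 1 fragment per promoter only pooled sets can be read. No paired analysis was possible because each group holds 1 library and its replicate number is only a name.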
